A study of Mus musculus with 6 samples.

Results

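The genes described here are the matrix metalloproteinases (MMP), the ADAM proteases and their secreted ADAMTS relatives, the ADAMTS-like proteins (ADAMTSL) and the tissue inhibitors of metalloproteinases (TIMP). They were chosen by name, as the genes whose symbol starts with Mmp, Adam, Adamts, Adamtsl or Timp followed directly by a digit, which gave 84 of the 34745 genes in the deposited table. RNA-seq was carried out on NOR-10, a fibroblast line from mouse skeletal muscle. The Con group (n = 3 libraries) received PBS, and the Dgal group (n = 3 libraries) received 20 mg/mL D-galactose (D-gal), a sugar used to induce features of senescence, for 3 days. The dose and the duration were taken from the study's methods. All 6 libraries came from this single line and the labels name no other allele or agent. The sample labels do not say whether the replicates were separate cultures, so p-values measure the spread between these libraries, which may be technical.

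MMPs, ADAMs and ADAMTS enzymes hold a zinc ion in their catalytic site. MMPs cleave collagens, fibronectin and other matrix proteins, either after secretion or at the cell surface. Most ADAMs sit in the membrane and release the outer parts of growth factors, receptors and adhesion proteins, although several have lost the catalytic site. ADAMTS enzymes cut the core proteins of proteoglycans such as versican or trim procollagens, ADAMTSL proteins lack the protease domain, and TIMPs block the active site of these enzymes. In skeletal muscle, fibroblasts are known as a main source of matrix and of the enzymes that turn it over.

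The catalytic zinc site is shown because it separates the proteases of the family from the members that have no such site. In the longest coding sequence of each gene in GENCODE M21 (GRCm38), 61 of the 84 members encoded histidine, glutamate, any 2 residues, histidine, any 5 residues, and histidine or aspartate. The site was found in 22 of 23 Mmp genes, in 20 of 33 Adam genes and in all 19 Adamts genes, and in none of the 5 Adamtsl and 4 Timp genes. The coding bases of the site are given below, 5′ to 3′ on the coding strand, with the codons of the fixed residues and the codon 3 before the last histidine or aspartate in capitals.
Adamts9: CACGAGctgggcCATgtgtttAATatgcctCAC
Adamts1: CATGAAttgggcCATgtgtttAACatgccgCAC
Adamts16: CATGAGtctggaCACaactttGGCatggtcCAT
Adam12: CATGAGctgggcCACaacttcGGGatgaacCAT
Mmp2: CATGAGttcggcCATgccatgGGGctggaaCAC
Mmp9: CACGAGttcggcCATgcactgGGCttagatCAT
Mmp16: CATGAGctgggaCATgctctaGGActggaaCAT
This latter codon stood for glycine in all 22 Mmp sites and in 13 of the 19 Adamts sites, including Adamts16. It stood for asparagine in 5 sites, those of Adamts1, Adamts4, Adamts9, Adamts15 and Adamts20. The site of Mmp2 lay at chr8:92839279-92839311 on the plus strand and that of Mmp9 at chr2:164951133-164951165 on the plus strand, each inside 1 exon. In all 19 Adamts genes the codons of the site were split by an intron, and in no Mmp gene were they. Of the 36 tested members with a zinc site, 6 were higher and 11 lower in Dgal at the threshold given below, and of the 11 tested members without one, 2 were higher and 5 lower, beside 34.8% of all genes tested (16.9% higher and 17.8% lower). The 3 tested genes with the asparagine form were Adamts9 and Adamts1, which were higher, and Adamts4, which was lower.

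Library totals lay between 16876087 and 20830349 counts in Con and between 13759108 and 15157064 in Dgal, and the 84 members took between 0.653% and 0.702% of them. Of the fibroblast markers, Pdgfra, Pdgfrb, Col1a1, Col1a2, Thy1 and Vim were abundant in every library, whereas Lum had 0 or 1 counts and Fap 1 to 5. The summed level of the 10 fibroblast markers was 7140 to 7350 CPM in Con and 4690 to 4810 in Dgal. CPM are counts per 1000000 counts of the library total, after that total was scaled by the normalization factor of the library. Of the 8 that were tested, 6 were lower at an adjusted p under 0.05 and 1, Pdgfrb, was higher (log2 fold change 0.19). These counts stand beside 17.8% lower and 16.9% higher among all genes tested. The lists for other cell types were low in both groups: 7 myogenic genes summed to 3.01 to 3.25 CPM in Con and 1.87 to 2.02 in Dgal with 4 of 7 at 0, 5 leukocyte genes to 4.09 to 17.3 and 4.41 to 5.4, 4 endothelial genes to 4.52 to 5.4 and 3.08 to 3.38, 4 adipocyte genes to 0.962 to 1.66 and 1.2 to 2.01 with 2 of 4 at 0, and 4 epithelial genes to 6.99 to 8.48 and 1.76 to 2.61 with 1 of 4 at 0. The highest leukocyte sum was that of Con replicate 1. In Con replicates 1 to 3, Csf1r had 141, 38 and 16 counts and Cd68 had 167, 91 and 51. Cdh1 held most of the epithelial counts, with 141, 142 and 140 in Con and 37, 26 and 33 in Dgal. It was lower at an adjusted p under 0.05 (log2 fold change -1.79). So were 1 of 1 myogenic and 1 of 3 endothelial genes tested, while 0 of 2 leukocyte and 0 of 1 adipocyte genes passed, beside 17.8% lower among all genes. The part of these shifts in the results below was not tested, and in these bulk libraries fewer cells of a type and less RNA per cell cannot be told apart.

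Which members changed with D-gal was the main comparison. Of the 84 members, 18 had 0 counts in every library, 47 had enough counts to be tested, and the other 19 were detected but too low to test. With both thresholds applied (an adjusted p under 0.05 and a difference of 1 or more on the log2 scale), Adamts9 and Mmp16 were higher in Dgal and Adam12, Adam5, Adamts16 and Mmp9 were lower. These 6 of 47 members stand beside 4.21% of the 13407 genes tested (2.37% higher and 1.83% lower). At an adjusted p under 0.05 alone, 8 members were higher and 16 lower, beside 34.8% of all genes (16.9% higher and 17.8% lower). The groups did not overlap in 29 of the 47, with 9 higher and 20 lower in Dgal. This stands beside 49.1% of all genes, with 3228 higher and 3351 lower of the 13407 tested. All Dgal library totals were below all Con totals, and after thinning of all counts to the lowest of these totals 5 members passed both thresholds. The median log2 fold change was -0.26 over the 47 members and 0.0036 over all genes tested. All fold changes are Dgal against Con, on the log2 scale, fitted by edgeR (quasi-likelihood), with p-values adjusted over all genes tested by the Benjamini-Hochberg method.

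**Figure D1:**
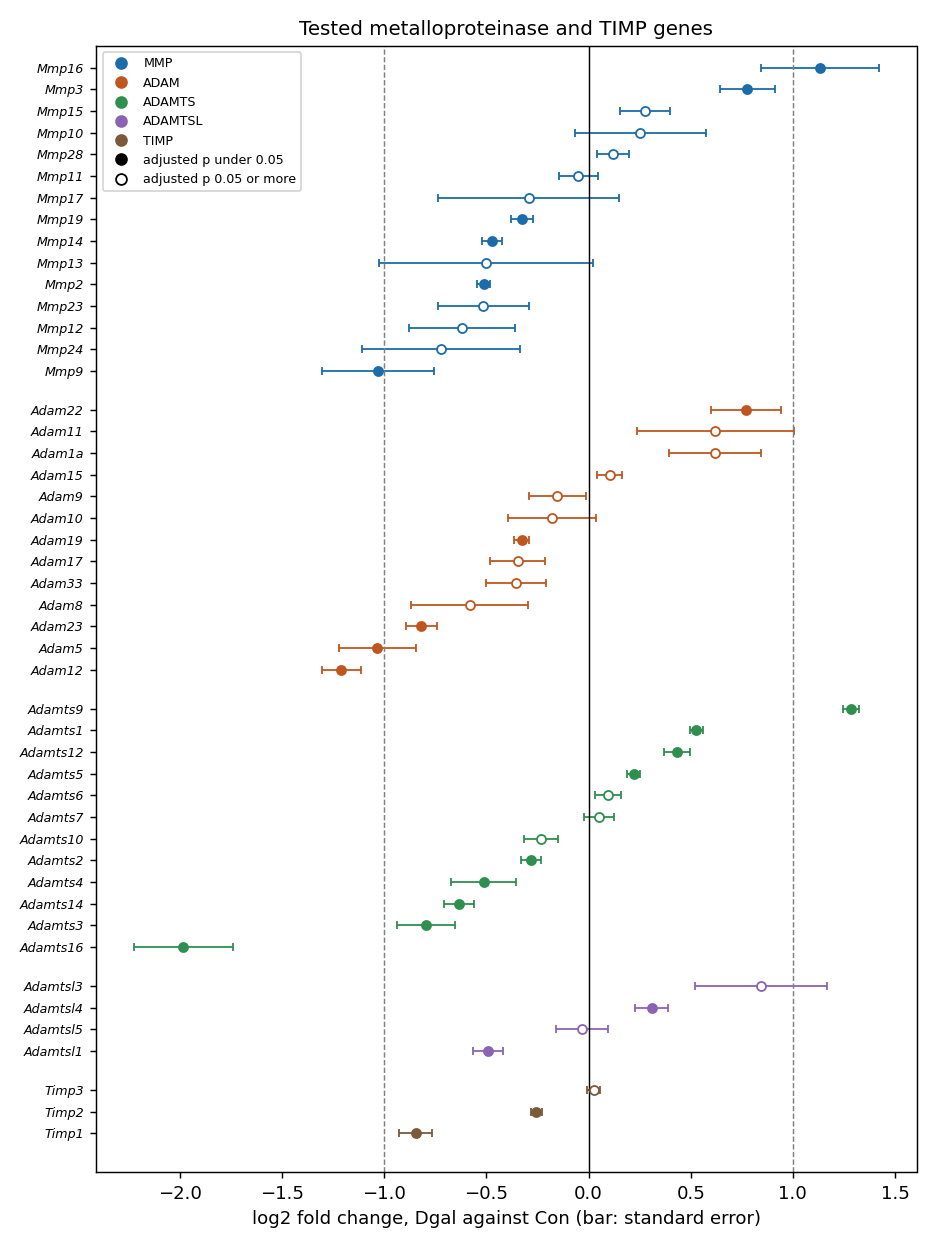
The log2 fold change of each of the 47 tested members (x axis, Dgal against Con, bars are standard errors), grouped and coloured by family, with filled points for an adjusted p under 0.05 and dashed lines at a log2 fold change of 1 in either direction. Adamts16 lies farthest to the left at -1.99 and Adamts9 farthest to the right at 1.29, and more filled points lie left of 0 (16) than right of it (8).

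Among the secreted MMPs, both gelatinases were lower in Dgal. Mmp2 (gelatinase A, which cleaves denatured collagen and type IV collagen) had normalized counts, that is counts scaled to a common library size, of 6107, 6375 and 6317 in Con and 4450, 4275 and 4443 in Dgal. Every Con library was above every Dgal library, and the log2 fold change was -0.51 (SE 0.033, adjusted p = 2.69e-05). Mmp9 (gelatinase B, at chr2:164940780-164955850, plus strand) had only 51, 59 and 40 raw counts in Con and 22, 12 and 23 in Dgal. On the normalized scale these were 44.4, 48.1 and 40.4 in Con and 24.7, 13.1 and 27.7 in Dgal, with no overlap, and a log2 fold change of -1.03 (SE 0.275, adjusted p = 0.022). With these few counts the call of Mmp9 was lost when Con replicate 1 or Con replicate 2 was left out (adjusted p = 0.0558 and 0.0715), and without Dgal replicate 2 its log2 fold change was -0.76. Mmp19, a secreted enzyme of basement membrane and other matrix substrates, had 954, 1011 and 1060 normalized counts in Con and 787, 821 and 804 in Dgal. It fell by 0.33 on the log2 scale (SE 0.0552, adjusted p = 0.00277). Its exons overlap Tmem198b on the opposite strand, which itself had 605 to 879 counts, and since the strand setting of the counting is not given in the sources used here, reads of the pair cannot be told apart.

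The secreted stromelysins, matrilysin and collagenases, apart from Mmp11, lie in a run of 10 Mmp genes at chr9:7272514-7699585 (GRCm38). Mmp11 (stromelysin 3, at chr10:75923222-75932502, minus strand) had overlapping groups and a log2 fold change of -0.05. Of the genes in the run, 4 were tested (Mmp3, Mmp10, Mmp12 and Mmp13) and 6 were not (Mmp1a, Mmp1b, Mmp7, Mmp8, Mmp20 and Mmp27), the latter with at most 7 counts over the 6 libraries. Mmp3 (stromelysin 1, which cleaves proteoglycans and activates other MMPs) was the only one of them past the adjusted p, and is given in full because of this, after its values were seen. Its normalized counts were 142, 117.5 and 157.5 in Con and 265, 234 and 214.5 in Dgal, without overlap, and the log2 fold change was 0.78 (SE 0.136, adjusted p = 0.00332). The log2 fold changes of Mmp10, Mmp12 and Mmp13 were 0.25, -0.62 and -0.50, and none passed. Mmp3 and Mmp10 share 14.6% and 11.9% of their 31-base words with each other or other genes, so reads of the pair may be assigned to either.

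The promoters of this run are shown because neighbours with the same short word upstream of the start did not all pass the test. RefSeq (GRCm38.p6) gave a promoter for 53 of the 84 members, and the 250 bases before each start were searched for TGAGTCA on both strands, the word bound by AP-1, a factor known to act on MMP promoters. The word was present in 7 of the 10 genes of the run and in 9 of the 53 members, and in 5.16% of the 27025 genes with a promoter. A TATAAA word on the coding strand was also present in 7 of the 10, beside 8.94% of all genes, and GGGCGG on either strand in 0 of the 10, beside 35.4%. The bases are given 5′ to 3′, with TGAGTCA or its complement TGACTCA and TATAAA in capitals.
Mmp3 (chr9:7445572-7445821, plus strand): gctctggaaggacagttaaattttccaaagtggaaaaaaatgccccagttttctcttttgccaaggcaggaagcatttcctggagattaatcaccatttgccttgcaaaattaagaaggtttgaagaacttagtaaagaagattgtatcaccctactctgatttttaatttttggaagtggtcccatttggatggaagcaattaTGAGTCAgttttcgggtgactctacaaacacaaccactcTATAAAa
Mmp10 (chr9:7502092-7502341, plus strand): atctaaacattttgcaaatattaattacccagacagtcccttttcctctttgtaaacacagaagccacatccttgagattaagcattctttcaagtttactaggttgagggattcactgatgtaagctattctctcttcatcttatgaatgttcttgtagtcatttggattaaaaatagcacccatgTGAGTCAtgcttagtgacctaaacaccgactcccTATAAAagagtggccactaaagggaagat
Mmp13 (chr9:7272264-7272513, plus strand): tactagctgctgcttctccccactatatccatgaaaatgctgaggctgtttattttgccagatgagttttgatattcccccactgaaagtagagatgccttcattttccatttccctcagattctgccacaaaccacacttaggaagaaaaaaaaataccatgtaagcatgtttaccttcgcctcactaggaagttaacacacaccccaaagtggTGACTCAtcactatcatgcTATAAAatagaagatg
The AP-1 word started 46, 63 and 35 bases before the annotated start of Mmp3, Mmp10 and Mmp13. These distances depend on the annotated starts, from which the TATAAA word began at -7, -29 and -16. Of these 3 genes Mmp3 was higher in Dgal, while Mmp10 and Mmp13 had overlapping groups and few counts. Mmp10 had raw counts of 34, 22 and 15 in Con and 19, 21 and 26 in Dgal (SE 0.321). Those of Mmp13 were 15, 14 and 11 in Con and 13, 2 and 7 in Dgal (SE 0.525). With so few counts, the lack of a call in these 2 genes does not show a response unlike that of Mmp3. Mmp12, the other tested gene of the run with the word, holds it 44 bases before the second of its annotated starts. Its groups did not overlap and its log2 fold change of -0.62 was in the other direction, but it did not pass (adjusted p = 0.103). A match describes the letters in this window and not binding. In the 8 genes with a promoter among those lower in Dgal at the adjusted p, 1 held the AP-1 word, and in the 6 among those higher, 1 did.

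Among the membrane-anchored MMPs, 1 abundant member was lower and 1 rare member higher. Mmp14 (MT1-MMP, a surface collagenase that activates the proenzyme of Mmp2 together with Timp2) had 4219, 4150 and 4512 normalized counts in Con and 3225, 2916 and 3144 in Dgal. The groups were apart, with a log2 fold change of -0.47 (SE 0.0497, adjusted p = 0.000268). Mmp16 (MT3-MMP, at chr4:17852893-18119145, plus strand) had raw counts of 12, 13 and 8 in Con and 23, 17 and 17 in Dgal, or 10.5, 10.6 and 8.08 against 25.8, 18.6 and 20.5 after normalization. Its log2 fold change was 1.13 (SE 0.289, adjusted p = 0.0179). The call of Mmp16 rested on these few counts and was lost without Con replicate 3 (adjusted p = 0.0597), without Dgal replicate 1 (adjusted p = 0.073) and with DESeq2 (adjusted p = 0.116). The other tested members of this group, Mmp15, Mmp17, Mmp23 and Mmp24, had log2 fold changes between -0.72 and 0.28 and overlapping groups, and none passed.

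Over the whole MMP family, 15 of 23 genes were tested, with 2 higher (Mmp3 and Mmp16) and 4 lower (Mmp2, Mmp9, Mmp14 and Mmp19) at the adjusted p, and a median log2 fold change of -0.33. This count stands beside the 34.8% of all genes tested that passed.

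Of the 8 tested ADAM genes with a catalytic site that are known outside the testis, 2 were lower in Dgal, 0 were higher and 6 did not pass, beside 17.8% lower and 16.9% higher among all genes. Adam12 (meltrin alpha, which releases growth factors and marks progenitors in injured muscle, at chr7:133883199-134232146, minus strand) had 481, 554 and 509 normalized counts in Con and 247, 216 and 204 in Dgal. The lowest Con library was well above the highest Dgal library, and the log2 fold change was -1.21 (SE 0.0961, adjusted p = 6.9e-05). Adam19 (meltrin beta, a relative of Adam12 that cleaves neuregulin) had 2396, 2419 and 2508 normalized counts in Con and 1972, 1936 and 1924 in Dgal. It was lower by a smaller margin, with a log2 fold change of -0.33 (SE 0.0351, adjusted p = 0.000297). Adam9, a widely expressed sheddase and the ADAM with the highest level per length, had 8284, 6265 and 8313 normalized counts in Con and 8254, 6092 and 6221 in Dgal. These groups overlapped, and its log2 fold change of -0.15 (SE 0.141) did not pass (adjusted p = 0.446).

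Adam10 and Adam17, the main sheddases of the cell surface, had replicates that stood apart and are described in full for this, after their values were seen. Adam10, which cleaves Notch receptors and cadherins, had 3376, 2091 and 3552 normalized counts in Con and 2005, 3042 and 2902 in Dgal. Con replicate 2 and Dgal replicate 1 were low and the other 4 libraries lay together, so that the highest library was 1.7 times the lowest in Con and 1.52 times in Dgal. Among the 4076 genes with a mean of at least 1000 normalized counts, the median ratio of highest to lowest library was 1.06 in Con and 1.07 in Dgal, and a ratio of 1.4 or more was seen in 3.04% of them in Con and in 2.89% in Dgal. Adam17, the enzyme that releases tumour necrosis factor and ligands of the EGF receptor, had 1500, 1514 and 1514 normalized counts in Con but 897, 1339 and 1324 in Dgal. All Dgal libraries were below all Con libraries, yet Dgal replicate 1 stood apart from the rest, and the log2 fold change of -0.35 (SE 0.135) did not pass (adjusted p = 0.0813). For Adam10 the adjusted p was 0.558.

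Of the ADAMs without a catalytic site, Adam23, a surface protein of the nervous system that binds integrins, had 349, 342 and 343 normalized counts in Con and 201, 189 and 196 in Dgal. This was a difference of -0.82 on the log2 scale (SE 0.0754, adjusted p = 0.00014) with tight replicates. Its relative Adam22, a receptor for LGI proteins, was higher, with a log2 fold change of 0.77. Adam11, the third of this group, had a log2 fold change of 0.62 with overlapping groups. Adam5, a sperm surface gene at chr8:24727093-24824369 (minus strand), had 50.5, 49.0 and 47.5 normalized counts in Con and 24.7, 26.2 and 20.5 in Dgal. Every Dgal library was near the same low level, and the log2 fold change was -1.04 (SE 0.189, adjusted p = 0.00399). It was just past the threshold on size, and was -0.94 without Dgal replicate 3 and -0.90 with all libraries thinned to the smallest total. Adam5 is in a run of 5 Adam genes with Adam18, Adam3, Adam32 and Adam9 on chr8:24602246-25016922, of which only Adam5 and Adam9 were tested. Of 33 Adam genes, 12 were at 0 in every library, and most of the others that were not tested are known from the testis. Among the 13 tested, 1 was higher, 4 lower and 8 did not pass, beside 34.8% of all genes that passed.

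Of the 12 tested ADAMTS genes, 4 were higher, 5 were lower and 3 did not pass, beside 16.9% higher and 17.8% lower among all genes. The proteoglycanases were higher except for Adamts4. Adamts9 (a secreted protease of versican, at chr6:92772699-92943492, minus strand) had 1740, 1763 and 1665 normalized counts in Con and 4049, 4301 and 4260 in Dgal. This was the largest rise among the tested members, at 2.44 times the Con level, with a log2 fold change of 1.29 (SE 0.0401, adjusted p = 1.78e-06). It was called in all 13 alternative settings. Part of its exons (1805 bases) lie opposite A730049H05Rik, which had 4 to 14 counts per library. Adamts1 (a protease of versican and aggrecan, also known as METH1) had 2926, 2989 and 2983 normalized counts in Con and 4247, 4354 and 4233 in Dgal. Its groups were far apart relative to their spread, with a log2 fold change of 0.53 (SE 0.031, adjusted p = 1.65e-05). Adamts5 (an aggrecanase) had 4405, 4402 and 4559 normalized counts in Con and 5307, 5140 and 5127 in Dgal. Its rise was small, at 0.22 on the log2 scale (SE 0.0319, adjusted p = 0.0013). Adamts1 and Adamts5 lie next to each other at chr16:85793827-85901125. Adamts4, another aggrecanase, had a log2 fold change of -0.51. Of the 4 proteoglycanases tested 3 were higher and 1 lower, with a median log2 fold change of 0.37.

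**Figure D2:**
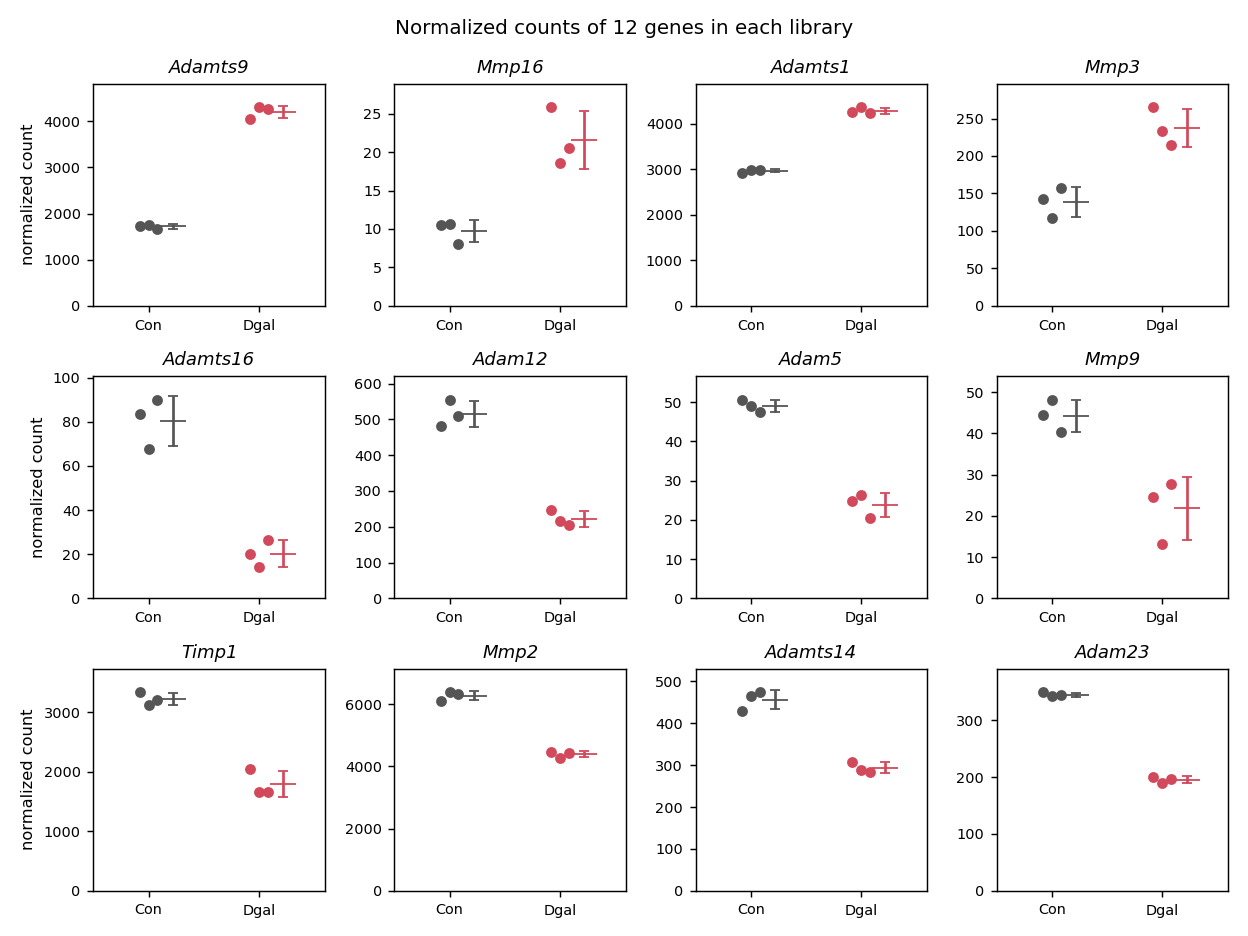
Normalized counts (y axis, linear from 0) of 12 members in the 3 Con (grey) and 3 Dgal (red) libraries, with the mean and SD of each group as a bar beside the points. The 12 were picked from members with an adjusted p under 0.05, so that their groups are apart reflects this choice. Examples are Adamts9 at 1665 to 1763 in Con against 4049 to 4301 in Dgal and Timp1 at 3132 to 3337 against 1664 to 2045. The groups overlapped in 18 of the 47 tested members.

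The procollagen N-proteinases, which remove the amino-terminal propeptide of fibrillar procollagens, were lower, 3 of 3, beside 17.8% lower among all genes tested. Their median log2 fold change was -0.63, beside 0.0036 over all genes tested. Adamts14 had 430.5, 465 and 474 normalized counts in Con and 309, 288 and 284 in Dgal. The groups did not overlap, and the log2 fold change was -0.63 (SE 0.0743, adjusted p = 0.000457). For Adamts2 and Adamts3 the log2 fold changes were -0.28 and -0.80. Adamts16 (an ADAMTS of kidney and gonad development, at chr13:70727802-70841811, minus strand) had 83.7, 67.7 and 89.9 normalized counts in Con and 20.2, 14.2 and 26.5 in Dgal. This was the largest fall of the 47 tested members, to 25.3% of the Con level, with a log2 fold change of -1.99 (SE 0.242, adjusted p = 0.000561). Adamts12, which cleaves the cartilage protein COMP, had 383, 366 and 390 normalized counts in Con and 526, 494 and 519 in Dgal. It was higher by 0.43 on the log2 scale (SE 0.064, adjusted p = 0.00142). The ADAMTS enzymes linked to fibrillin, Adamts6 and Adamts10, had log2 fold changes of 0.10 and -0.23, and neither passed.

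In the ADAMTSL family, Adamtsl1 (punctin, a matrix protein) had 373, 416 and 397 normalized counts in Con and 284, 277 and 281 in Dgal, a log2 fold change of -0.49 (SE 0.0739, adjusted p = 0.00153). Adamtsl4, which binds fibrillin and is the family's highest gene per length, had 615, 599 and 534 normalized counts in Con and 773, 734 and 660 in Dgal. The libraries did not overlap and the log2 fold change was 0.31 (SE 0.0808, adjusted p = 0.02). That call was lost without Con replicate 3, Dgal replicate 1 or Dgal replicate 2 (adjusted p between 0.0587 and 0.0672). The other tested genes of the family, Adamtsl3 and Adamtsl5, did not pass.

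Of the inhibitors, Timp1 and Timp2 were lower in Dgal and Timp3 was not. Timp1 (the TIMP that binds the proenzyme of Mmp9, at chrX:20870166-20874735, plus strand) had 3337, 3132 and 3207 normalized counts in Con and 2045, 1669 and 1664 in Dgal. Dgal replicate 1 was the highest of its group but still far below Con, and the log2 fold change was -0.85 (SE 0.0788, adjusted p = 0.000145). Timp2 had 26740, 27140 and 26410 normalized counts in Con and 23050, 22020 and 22110 in Dgal. Its difference was small but beyond the replicate spread, at -0.26 (SE 0.027, adjusted p = 0.000266). Timp3 (which stays bound to the matrix and also inhibits Adam17 and aggrecanases) had 41570, 40660 and 40630 normalized counts in Con and 43440, 40350 and 41170 in Dgal. The ranges overlapped, and the log2 fold change was 0.02 (SE 0.0306, adjusted p = 0.58). A stretch of 1733 bases of Timp3 lies opposite Syn3, which had 7 to 18 counts. Timp4 had raw counts of 2, 0 and 2 in Con and 0, 1 and 0 in Dgal and was not tested.

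Levels were then compared between genes per length, as CPM per kilobase of annotated exon. The TIMPs were the highest of the members in Con, with Timp2 at 409 ± 5.65 (SD, n = 3), Timp3 at 299 ± 3.9 and Timp1 at 216 ± 6.95. In Dgal these were 342 ± 8.71, 304.5 ± 11.7 and 120 ± 14.6. Timp1 depended on the gene length used, and with the length behind the deposited FPKM it was at 139 ± 4.46 in Con and 77.1 ± 9.37 in Dgal. Mmp2 (110.7 ± 2.49) and Adam9 (110.2 ± 17) came next in Con and did not differ beyond their spread with this length, but did with the length behind the FPKM (123 ± 2.76 and 80.3 ± 12.4). They were followed by Mmp14 (42.9 ± 1.92) and Adam10 (36.4 ± 9.67), which lay within their spread with annotated exon lengths. Of the ADAMTS genes, Adamts1 was highest in Con and in Dgal with annotated exon lengths (33.3 ± 0.389 and 48.0 ± 0.743). With the length behind the FPKM, Adamts5 was above Adamts1 in Con (32.8 ± 0.658 and 27.9 ± 0.326) but not in Dgal (38.2 ± 0.739 and 40.3 ± 0.624). With annotated exon lengths, Adamts9 rose from 6.82 ± 0.203 to 16.6 ± 0.535. The summed level of the MMP family was 198, 201 and 203 in Con and 157, 150 and 158 in Dgal, or 77.2% of Con, and 76.4% of it came from Mmp2 and Mmp14 in Con and 69.9% in Dgal. The summed TIMP level was 82.9% of Con, and the ratio of summed TIMP to summed MMP level was 4.73, 4.58 and 4.50 in Con and 5.13, 4.96 and 4.75 in Dgal. With the length behind the FPKM it was 3.94, 3.82 and 3.74 in Con and 4.41, 4.29 and 4.12 in Dgal. The groups did not overlap with either length, and the ratio is a description with no test. The summed ADAMTS level was 109, 112 and 110 in Con and 132, 131 and 132 in Dgal. The summed ADAM level, led by Adam9 and Adam10, was lower in Con replicate 2 (167) than in the other 2 Con libraries (213 and 216) and overlapped with Dgal.

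**Figure D3:**
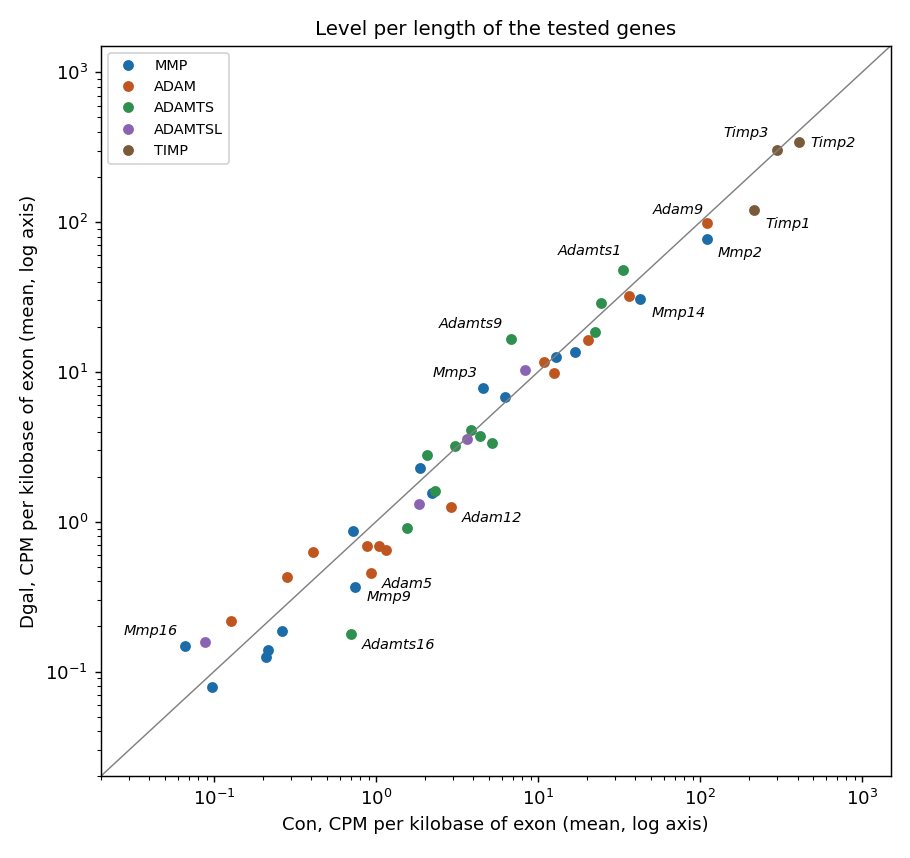
The mean level per length of the 47 tested members in Con (x axis) and Dgal (y axis), both on log axes in CPM per kilobase of exon, coloured by family, with a line of equal levels. Timp1, Mmp2 and Mmp14 lie below the line and Adamts1, Adamts9 and Mmp3 above it, while Timp3 lies on it.

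**Figure D4:**
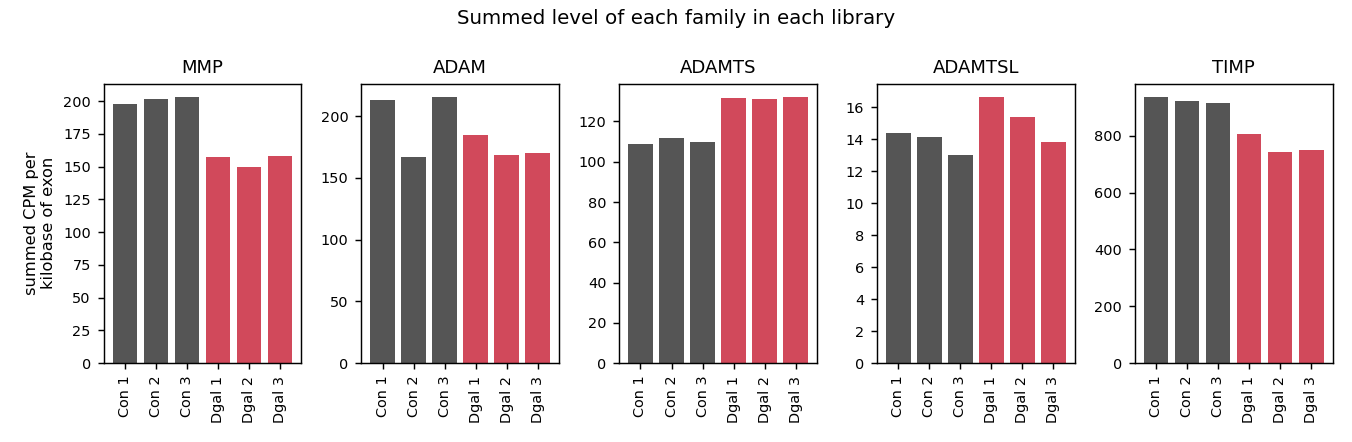
The level per length summed over each family (y axis, CPM per kilobase of exon, from 0) in each of the 6 libraries, with Con in grey and Dgal in red. The MMP and TIMP bars are lower and the ADAMTS bars higher in every Dgal library than in every Con library, whereas the ADAM bars overlap.

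Genes that act with these families were counted from lists. Of 18 tested genes of a list on activation and control of proteases, 3 were higher and 10 lower at the adjusted p. Their median log2 fold change was -0.25. The list is mixed and also holds other proteases, and of these Bmp1, Ctsk, Htra1 and Tll1 were among the lower genes. Only Tll1, a procollagen C-proteinase, passed both thresholds (log2 fold change -1.32). Of 11 tested partners of Adam10 and Adam17, 2 were higher and 3 lower, and none passed both thresholds. Of 15 tested proteoglycan, collagen and glycoprotein substrates, 2 were higher and 12 lower, with a median of -0.64. The 3 that passed both thresholds were Fn1 (fibronectin, log2 fold change -1.27), Col3a1 (a fibrillar collagen, -1.18) and Dcn (decorin, -1.42). Of 24 tested ligands and receptors released by ADAMs, 3 were higher and 11 lower, with a median of -0.12, and Notch1 (-1.24) and Tgfa (-1.07) passed both. These counts describe the lists and stand beside 16.9% higher and 17.8% lower among all genes tested.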

How the data were processed

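RNA-seq libraries of NOR-10 cells (3 Con, 3 Dgal) were grouped by their labels. Reads were aligned with HISAT2 2.0.4 per the submitters' processing notes, and the counting tool, strand setting, genome build and annotation are not given in the sources used here. The methods name a small RNA library kit and the labels an RNA-seq kit, which was not resolved. The authors deposited raw counts per gene and FPKM, which the authors computed from gene length and library total. Of the 84 members, all were in GENCODE M21 and 58 had the same start and end there.

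Counts were tested over all genes with edgeR 4.0.16 (R 4.3.3): TMM, filterByExpr, quasi-likelihood test, no covariate, Benjamini-Hochberg adjustment. Thresholds were an adjusted p of 0.05 and a log2 fold change of 1, as in the study's methods. Standard errors were taken as log2 fold change over the root of F. The two-sided exact permutation test of 3 against 3 cannot go below p = 0.1. The fit was tested on simulated data beforehand. Replicates differed by more than sampling noise (a chi-square of 6 to 9.42 times its degrees of freedom).

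Full values are given for members past both thresholds, the 12 smallest p-values among the others with an adjusted p under 0.05, all Timp genes and the highest gene per length of each other family. Members and lists were chosen with earlier results of these data known. Alternatives were DESeq2 1.42.0, RLE factors, other count filters, limma 3.58.1 on log2(FPKM + 1), glmTreat, thinned counts, a replicate block and leaving out each library. Promoters came from RefSeq. Protein sequences were not used here, and coding bases of the zinc site, from GENCODE M21 transcripts, are shown in their place; the site search was chosen after the counts had been seen.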

Additional observations from a re-analysis of the deposited data

How the results depend on the processing

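Of the 6 members past both thresholds, limma on log2(FPKM + 1), whose pseudocount shrinks low genes by construction, and glmTreat against a log2 fold change of 1 each gave 1 (1 higher, 0 lower). The higher count was also 1 instead of 2 with DESeq2 and with at least 10 counts in every library, where Mmp16 was not tested. Leaving out each library in turn gave 5 to 6 members, 1 to 3 higher and 3 to 4 lower. In the 13 settings with a fold change threshold on the estimate, Adamts9 was called in 13, Adam12 and Adamts16 in 12, Adam5 in 10, and Mmp9 and Mmp16 in 8. Adam32, with 44 counts in all, was called only without Con replicate 2. At the adjusted p alone the count stayed between 21 and 25, against 24. Same-numbered Con and Dgal libraries did not deviate together (correlations -0.014, -0.0065 and 0.026), and 1 of 3 numbers matched best with itself. With the replicate block, 5 members passed both thresholds and 23 the adjusted p, and Mmp9 was lost (log2 fold change -1.05, adjusted p = 0.0517). In leave-one-out fits the partners of Adam10 and Adam17 had 1 to 3 higher, and with counts thinned to the smallest library 5 lower instead of 3. Timp3 ranged from -0.00692 (without Dgal replicate 1) to 0.0475 over the leave-one-out fits. With the length behind the deposited FPKM, the Con level was 123 for Mmp2, 80.3 for Adam9, 28.0 for Adamts1, 6.10 for Adamtsl4, 389 for Timp2 and 139 for Timp1, and Mmp2 and Adam9 no longer lay within their spread. Depth limits the 37 untested members, none of which had more than 44 counts in all.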
